A study of Arabidopsis thaliana with 4 samples.

Results

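UBC7 (AT5G59300), UBC13 (AT3G46460) and UBC14 (AT3G55380) are the 3 members of a subfamily of ubiquitin-conjugating (E2) enzymes in Arabidopsis thaliana, and their 3 rows were taken by locus identifier from the 33977 gene rows of each count file. All 3 passed the filter on low counts, as did 19919 genes in all. The members were chosen by measured values: UBC7 was selected on its transcript level, which stood far lower in plants that overexpress PPD3, a chloroplast protein of the PsbP-domain family, and the other 2 were added as its paralogues. The genotype values of the 3 genes are therefore given as a description, with no test.

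The libraries hold mRNA of individual plants, 2 of wild-type Col-0, a standard laboratory accession, and 2 PPD3_OE plants, which overexpress PPD3 in the Col-0 background. The plants are called WT 1 and 2 and PPD3_OE 1 and 2 after their replicate numbers. The plants grew on peat mix at 22 °C with 16 h of light and were frozen at bolting, and the labels name both whole plants and the whole rosette as the tissue. The sources used here do not give the promoter that drives PPD3, nor whether the 2 PPD3_OE plants come from the same transgenic line. Gene counts summed to between 33771093 and 40727172 per library. The transcript taken as PPD3, AT1G76450, was at 102.8 and 70.65 CPM (counts scaled to library size, with TMM factors between libraries) in WT 1 and 2 and at 2836 and 3264 CPM in PPD3_OE 1 and 2. Of the marker lists, 5 leaf genes of photosynthesis summed to between 26550 and 32230 CPM, and 5 root hair genes to between 0.0541 and 0.449 CPM, with 2 of those 5 at 0 in every plant. The 6 floral genes summed to 12.4 and 6.38 CPM in WT 1 and 2 and to 20.2 and 13.6 CPM in PPD3_OE 1 and 2. All 6 had positive fold changes (median log2 0.89), 4 of them with groups that did not overlap, and DESeq2 called 0. Over all genes the groups did not overlap for 67.0% (33.9% higher in PPD3_OE), and DESeq2 called 18.0%. The part of floral tissue in the UBC7 difference and the list counts was not tested.

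An E2 enzyme accepts activated ubiquitin from an E1 enzyme on a catalytic cysteine and, together with an E3 ligase, passes it on to a substrate protein. The subfamily takes its name from Ubc7 of budding yeast, which works with the ligases Hrd1 and Doa10 in endoplasmic reticulum-associated degradation (ERAD), the route that removes misfolded proteins from the endoplasmic reticulum (ER). Arabidopsis UBC13 shares only its number with yeast Ubc13, the E2 of lysine-63 ubiquitin chains, whose Arabidopsis counterparts are UBC35 and UBC36.

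The 3 genes are alike in sequence. UBC7 lies on the minus strand of chromosome 5 from 23919868 to 23921193, UBC13 on the minus strand of chromosome 3 from 17095706 to 17097465, and UBC14 on chromosome 3 from 20531069 to 20533285, plus strand, in RefSeq's annotation of TAIR10.1. Over 501 aligned coding bases UBC7 was 88.8% identical to UBC13 and 81.2% identical to UBC14, while UBC13 and UBC14 were 79.0% identical. The 81 coding bases around the active site are shown because they are what makes each gene an E2. The capitals mark, in order, the codons for the His-Pro-Asn triplet that E2 enzymes share and the codon for the catalytic cysteine, which is codon 89 in UBC7 and UBC13 and codon 90 in UBC14:
UBC7: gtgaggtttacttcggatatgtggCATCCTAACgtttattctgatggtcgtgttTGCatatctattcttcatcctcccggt
UBC13: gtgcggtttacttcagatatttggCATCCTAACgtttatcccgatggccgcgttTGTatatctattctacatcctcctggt
UBC14: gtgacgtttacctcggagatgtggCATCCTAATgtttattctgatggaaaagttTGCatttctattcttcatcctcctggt

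In this stretch UBC7 differed from UBC13 at 10 bases, from UBC14 at 10 bases, and UBC13 differed from UBC14 at 16. Counted from 1 at the first base shown, the cysteine codon carries C57T between UBC7 and UBC13. The longest run of identical bases between annotated transcripts was 63 for UBC7 and UBC13, shorter than the 150-base reads. None of the 352 read-length windows along the UBC7 transcript occurred without mismatch in an annotated transcript of any other gene, and the same held for the 1329 windows of UBC13 and the 1451 of UBC14. A read without errors that lies within an annotated transcript could thus be told apart between the 3 genes. The UBC7 model in RefSeq is incomplete: its 6 exons hold the 501 coding bases and no untranslated region, whereas the exons of UBC13 and UBC14 cover 1329 and 1451 bases. UBC13 overlaps a neighbour on the same strand, AT3G46450, over 24 exon bases.

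UBC7 was nearly absent from the PPD3_OE plants. Its read counts were 633 and 697 in WT 1 and 2, and 16 and 9 in PPD3_OE 1 and 2. Scaled for depth, UBC7 was at 17.1 and 20.02 CPM in wild type and at 0.399 and 0.263 CPM in PPD3_OE. Both PPD3_OE plants lay far below both wild-type plants. The mean went from 18.6 ± 2.05 CPM (SD, n = 2) in wild type to 0.331 ± 0.0968 CPM (SD, n = 2) in PPD3_OE, a 56.1-fold lower level, with a log2 fold change of -5.78 and an SE of 0.26 in edgeR. Among the 19919 genes tested, 4 had a larger fold change in either direction. In bulk tissue, fewer cells that express a gene and less of its RNA per cell cannot be told apart.

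The residual UBC7 signal was close to the limit of the depth but above it, since a count of 0 would allow up to 0.0749 and 0.0875 CPM in PPD3_OE 1 and 2 (3 counts). With exact 95% Poisson intervals, which cover counting error only, PPD3_OE 1 was at 0.228 to 0.649 CPM and plant 2 at 0.120 to 0.498 CPM, so no difference between these 2 plants was detectable at this depth. In wild type the intervals, 15.8 to 18.5 CPM and 18.6 to 21.6 CPM, did not overlap, and plant 2 was the higher. Senescence markers moved with genotype in the same plants: the 5 genes of that list summed to 185 and 352 CPM in WT 1 and 2 and to 15.3 and 10.97 CPM in PPD3_OE 1 and 2, and SAG12, a marker of late leaf senescence, was at 4.84, 0.201, 0.0250 and 0 CPM in that order. Between the wild-type plants the list did not move as a whole. SEN1 (68.7 and 224 CPM in WT 1 and 2), NAP and ORE1 were higher in WT 2. SAG13 (78.45 and 52.4 CPM) and SAG12 were lower there. The part of senescence in the UBC7 difference was not tested.

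**Figure D1:**
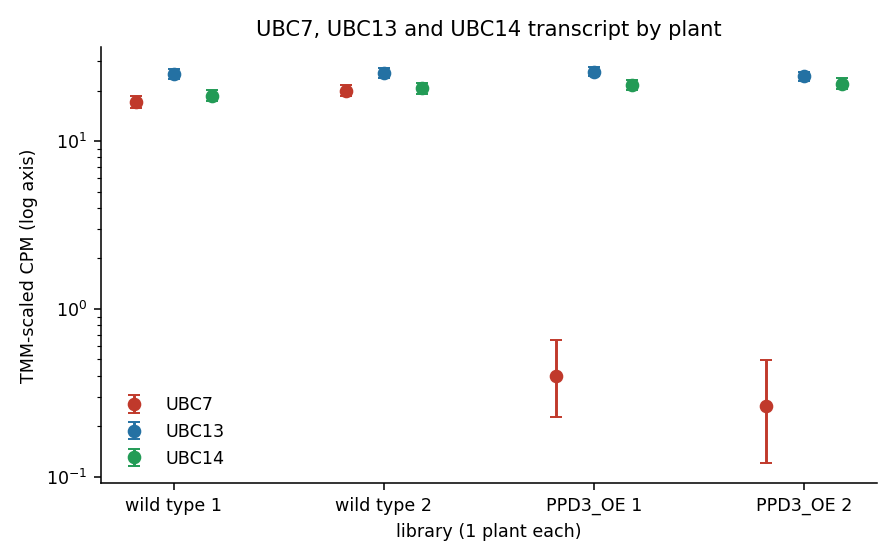
TMM-scaled CPM of UBC7, UBC13 and UBC14 in each of the 4 plants, on a log axis, with exact 95% Poisson intervals of the count as bars. UBC7 sits at 17.1 and 20.02 CPM in wild type and at 0.399 and 0.263 CPM in PPD3_OE, while UBC13 and UBC14 stay between 18.7 and 26.0 CPM in all 4 plants.

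UBC13 was level between the genotypes. Its counts were 931 and 888 in WT 1 and 2 and 1040 and 834 in PPD3_OE 1 and 2, which is 25.2, 25.5, 26.0 and 24.3 CPM. The groups overlapped, with the wild-type plants lying between the PPD3_OE plants. The means were 25.3 ± 0.225 CPM and 25.1 ± 1.15 CPM (SD, n = 2 each), with a log2 fold change of -0.01 and an SE of 0.10.

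UBC14 was slightly higher in PPD3_OE. Its counts were 691 and 719 in WT 1 and 2 and 865 and 755 in PPD3_OE 1 and 2, or 18.7, 20.7, 21.6 and 22.0 CPM. Both PPD3_OE plants lay above both wild-type plants, as was the case for 33.9% of all genes tested. The means were 19.7 ± 1.38 CPM and 21.8 ± 0.306 CPM (SD, n = 2 each), a log2 fold change of 0.15 with an SE of 0.11. Without WT 1, the lowest of the 4 plants, it was 0.05. The Poisson intervals of WT 2 (19.2 to 22.2 CPM) and PPD3_OE 1 (20.2 to 23.1 CPM) overlapped.

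Added together, the 3 genes gave 61.0 and 66.2 CPM in WT 1 and 2 and 47.95 and 46.6 CPM in PPD3_OE 1 and 2. UBC7 made up 28.07% and 30.25% of that sum of reads in wild type and 0.833% and 0.563% in PPD3_OE. These shares are not scaled for length. Per kilobase of annotated exon, UBC7 held 51.78% and 54.45% of the summed level in WT 1 and 2 and 2.26% and 1.54% in PPD3_OE 1 and 2, and the mean sum was 69.7 ± 5.21 CPM per kb in wild type and 34.6 ± 0.849 in PPD3_OE. Per kilobase of coding sequence its shares were 28.12%, 30.31%, 0.835% and 0.565% in the same order. The sum of UBC13 and UBC14 alone was 43.88 and 46.15 CPM in wild type and 47.55 and 46.35 CPM in PPD3_OE. The lower total CPM in PPD3_OE thus lay in UBC7, and the UBC13 and UBC14 sum differed between the genotype means (45.02 ± 1.61 and 46.95 ± 0.847 CPM) by about the spread between plants.

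**Figure D2:**
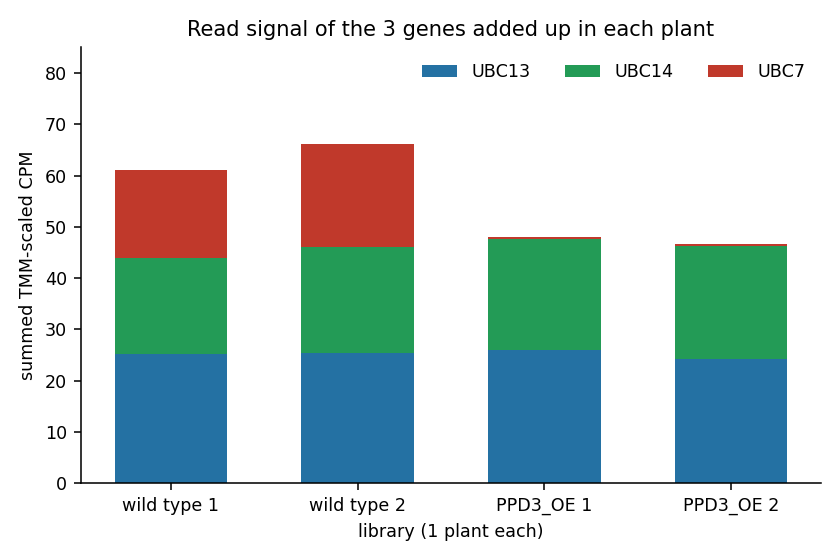
Stacked bars of the TMM-scaled CPM of UBC13, UBC14 and UBC7 in each plant, not scaled for gene length, starting at 0. The bars add up to 61.0 and 66.2 CPM in wild type and to 47.95 and 46.6 CPM in PPD3_OE, where the UBC7 segment is barely visible.

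Levels of the paralogues can be compared with each other only per length, and the order in wild type depended on which length was used. Per kilobase of annotated exon, wild-type UBC7 was highest (37.1 ± 4.08 CPM per kb), followed by UBC13 (19.1 ± 0.169) and UBC14 (13.6 ± 0.954), with no overlap between neighbours. Per kilobase of coding sequence, wild-type UBC13 was highest (50.6 ± 0.449 CPM per kb), and UBC14 (39.0 ± 2.75) and UBC7 (37.1 ± 4.08) overlapped. The UBC7 model lacks untranslated regions, and the sources used here do not name the annotation used for counting, so the place of UBC7 in the wild-type order is not settled. In PPD3_OE the order was the same by both lengths, UBC13 over UBC14 over UBC7. There UBC7 stood at 0.661 ± 0.193 CPM per kb, UBC14 at 15.03 ± 0.211 and UBC13 at 18.9 ± 0.867 CPM per kb of exon.

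UBC13 stood above UBC14 per kilobase of exon in all 4 plants, by log2 ratios of 0.56 and 0.43 in WT 1 and 2 and 0.39 and 0.27 in PPD3_OE 1 and 2. The mean log2 ratio was 0.41 ± 0.12 (SD over 4 plants). An exact two-sided sign-flip permutation test over the 4 plants gave p = 0.125, the smallest p that 4 plants allow, so this design cannot pass 0.05. With coding length the mean ratio was 0.29, again with UBC13 higher in 4 of 4 plants.

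The surroundings of the genes were compared as well. UBC7 and UBC13 each lie near a gene for UDP-glucuronic acid decarboxylase, an enzyme that makes UDP-xylose for cell walls. UXS3 is 1601 bases from UBC7 and UXS5 is 3641 bases from UBC13. UXS3 was at 87.2 and 112 CPM in WT 1 and 2 and at 85.1 and 92.5 CPM in PPD3_OE 1 and 2, and UXS5 at 43.5, 48.8, 44.1 and 48.3 CPM in that order. For both, the genotypes overlapped. On the other side of UBC7, AT5G59305, annotated as a CLE-like peptide gene, was at 4.38, 9.45, 3.07 and 5.22 CPM, and LTP4, a lipid transfer protein, was at 32.1, 91.0, 3.84 and 28.8 CPM. LTP4 was lower in both PPD3_OE plants, but its log2 fold change of -1.92 had an SE of 1.07. Flanking genes here are protein-coding genes that do not overlap a member, so AT3G46450, which overlaps UBC13, is left out. Of the 12 genes that flank the 3 members, 2 on each side, 9 were tested. With edgeR 0 of these 9 passed an adjusted p of 0.05 and 2 were at an unadjusted p under 0.05. DESeq2 called 0 of them. Over all genes the shares were 33.1% at an unadjusted p under 0.05 with edgeR and 18.0% with DESeq2. The log2 fold changes of the 9 flanking genes tested ran from -1.92 to 0.51.

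Upstream of the annotated gene starts, UBC7 and UBC13 share a block of sequence. It is shown as a description of the sequence. Its part in the genotype values of UBC7 and UBC13 was not tested. A local alignment of the 250 bases before each gene start matched 65 of 87 aligned bases between UBC7 and UBC13, with a longest identical run of 14 bases, against a longest run of 8 bases for UBC7 with UBC14 and 7 for UBC13 with UBC14. Capitals mark the bases identical in the alignment, both written 5′ to 3′ on the gene's strand, at chr5:23921278-23921365 (minus strand) and chr3:17097473-17097565 (minus strand) in TAIR10.1:
UBC7: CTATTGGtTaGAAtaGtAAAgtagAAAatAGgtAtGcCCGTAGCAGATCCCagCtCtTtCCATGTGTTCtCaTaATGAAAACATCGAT
UBC13: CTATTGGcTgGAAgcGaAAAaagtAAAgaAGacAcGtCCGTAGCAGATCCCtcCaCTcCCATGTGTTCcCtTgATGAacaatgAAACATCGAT

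The block ends 85 bases before the annotated start of UBC7, which is its start codon, and 8 bases before that of UBC13, which is an annotated transcript start. In the 250-base windows, on both strands, the letters of the G-box (CACGTG, in 6.49% of 27443 windows of protein-coding genes), the W-box core (TTGAC, 44.9%), an auxin response element (TGTCTC, 10.9%), a TATA box (TATAAA, 47.3%) and site II (TGGGCC, 13.7%) were found in 0 of the 3. ACGTGTC, an abscisic acid response element (3.68%), occurred in UBC13 alone. CACG, a core bound by NAC factors (45.6%), which overlaps with ACGTGTC in the UBC13 window, was in UBC13 and UBC14 and not in UBC7. The UBC7 window ends at a start codon and those of UBC13 and UBC14 at an annotated transcript start, so the windows cover unlike regions. A letter match is a description of the window and not a binding site.

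By pattern, the tested gene most like UBC7 was AT5G39520, annotated as a DUF1997 protein. Likeness was the Euclidean distance between log2 CPM deviations from each gene's own mean over the 4 libraries, so the rule used the same contrast, and the values are a description. AT5G39520 was at 15.6 and 28.5 CPM in WT 1 and 2 and at 0.699 and 0.613 CPM in PPD3_OE 1 and 2 (distance 0.878). AT5G37970, annotated as a methyltransferase, followed (2.38, 2.64, 0 and 0.0292 CPM, distance 0.885). SEN1, a dark-inducible senescence gene, was at 68.7, 224, 3.69 and 2.36 CPM (distance 1.08). NAP, a NAC regulator of leaf senescence, was at 21.3, 55.2, 1.55 and 0.875 CPM (distance 1.16). NIT2, a nitrilase, was at 58.6, 62.8, 3.35 and 3.06 CPM (distance 1.42). In all 5 both PPD3_OE plants lay below both WT plants, and AT5G39520, SEN1 and NAP differed more between the wild-type plants than UBC7 did. With a prior count of 0.5 in place of 2, 3 of these 5 genes stayed among the nearest, and NAC012 and MAN1 took the places of AT5G37970 and NIT2.

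**Figure D3:**
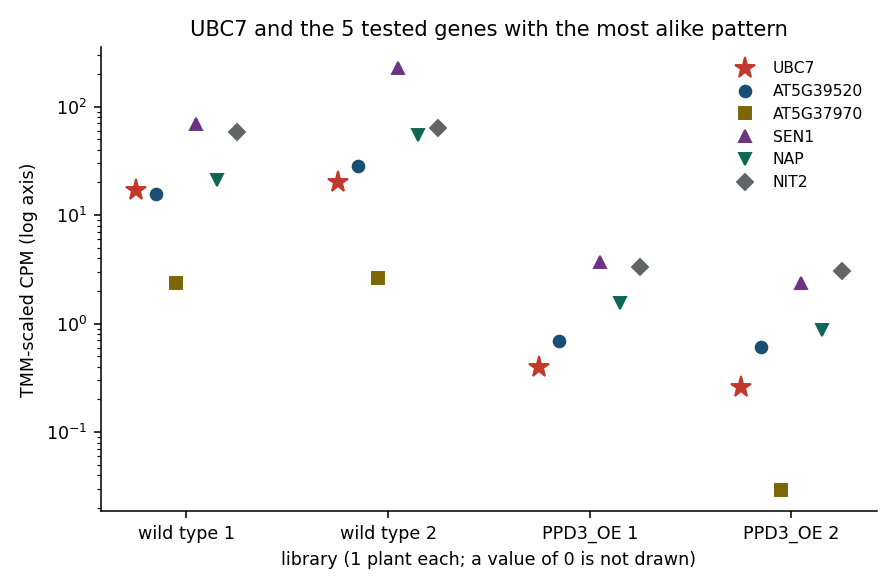
TMM-scaled CPM, on a log axis, of UBC7 and of the 5 tested genes nearest to it in pattern, with 1 point per gene and plant. Each of the 6 genes sits lower in both PPD3_OE plants than in both WT plants. AT5G37970 had a count of 0 in PPD3_OE 1, which is not drawn.

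UBC13 and UBC14 had much closer neighbours. The closest to UBC13 was AT4G25680, a putative thiol peptidase, at 25.4, 25.5, 26.0 and 24.5 CPM in WT 1 and 2 and PPD3_OE 1 and 2 (distance 0.00982). Next came AT4G39050, a kinesin (distance 0.0141), and AT5G03450, a WD40 repeat protein (distance 0.0153). The closest to UBC14 was AT3G62580, annotated as a late embryogenesis abundant family protein, at 21.3, 23.6, 24.5 and 25.0 CPM (distance 0.00979), followed by AT1G23890, an NHL domain protein (distance 0.0162), and AT4G34840, which encodes a methylthioadenosine nucleosidase (distance 0.0164).

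Set beside the rest of the E2 family, UBC7, which was chosen for its lower level in this contrast, had by far the lowest fold change. The other E2 list holds 36 genes with a row in the files, including the E2-like enzymes for SUMO (SCE1) and RUB (RCE1 and RCE2), and 34 of them were tested. Their log2 fold changes ran from -1.15 to 0.82, with a median of -0.22 against 0.01 over all genes tested. Of the 34, 25 were negative, against 9715 of 19919 over all genes. UBC7 at -5.78 lay outside this range, while UBC13 and UBC14 lay within it. Per kilobase of exon, UBC7 ranked 15 of 39 E2 genes in wild type and 37 of 39 in PPD3_OE, and 29 and 37 per kilobase of coding sequence. UBC7 was the only one of the 39 whose annotated model holds coding sequence alone.

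With edgeR, 0 of the 34 other E2 genes passed an adjusted p of 0.05, against 1 gene, or 0.00502%, of all genes tested. At an unadjusted p under 0.05 there were 16, 1 of them higher and 15 lower, against 33.1% of all genes. DESeq2, the other count test, called 1 E2 gene higher and 9 lower by its adjusted p (threshold 0.05), where it called 18.0% of all genes (8.35% higher and 9.65% lower). With edgeR at an adjusted p of 0.10, the split was again 1 and 9, against 9.56% higher and 11.2% lower of all genes (20.7% in all). The DESeq2 count over the list, 10, was lower in each fit that left out a plant other than WT 1. Those fits had 1 plant in a group, and their share over all genes was not counted. In 24 of the 34 the groups did not overlap (19 lower and 5 higher in PPD3_OE), against 67.0% of all genes (33.0% lower and 33.9% higher).

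The E2 genes with the largest negative changes after UBC7 were UBC28, UBC5 and UBC8. UBC8 and UBC28 are of the group of widely expressed E2 enzymes that work with many RING ligases. UBC28 was at 270 and 362 CPM in WT 1 and 2 and at 149 and 136 CPM in PPD3_OE 1 and 2 (log2 fold change -1.15 ± 0.19, DESeq2 adjusted p = 1.69e-05). UBC8 was at 383 and 401 CPM against 207 (plant 1) and 196 CPM (plant 2), with a log2 fold change of -0.96 ± 0.13 (DESeq2 adjusted p = 7.71e-09). UBC5, of the group related to human UBE2H, was at 39.0 and 53.4 CPM against 25.8 and 19.7 CPM (-1.02 ± 0.22, DESeq2 adjusted p = 0.00295). Groups that do not overlap were part of the rule by which these genes were named.

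The E2 gene with the largest positive change was UBC20, whose product is an E2 of the anaphase-promoting complex. It was at 22.5 and 19.4 CPM in WT 1 and 2 and at 38.5 and 35.8 CPM in PPD3_OE 1 and 2 (0.82 ± 0.12, DESeq2 adjusted p = 4.43e-04). Its paralogue UBC19 was at 67.8 and 59.6 CPM against 63.1 and 48.5 CPM, with overlapping groups. The 8 dividing-cell markers summed to 105.5 and 91.2 CPM in wild type and to 187 and 180 CPM in PPD3_OE, and their part in the UBC20 value was not tested. SCE1 (0.25 ± 0.11) and UBC37 (0.20 ± 0.15) were the next highest with groups that did not overlap, and neither passed in DESeq2 or edgeR.

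**Figure D4:**
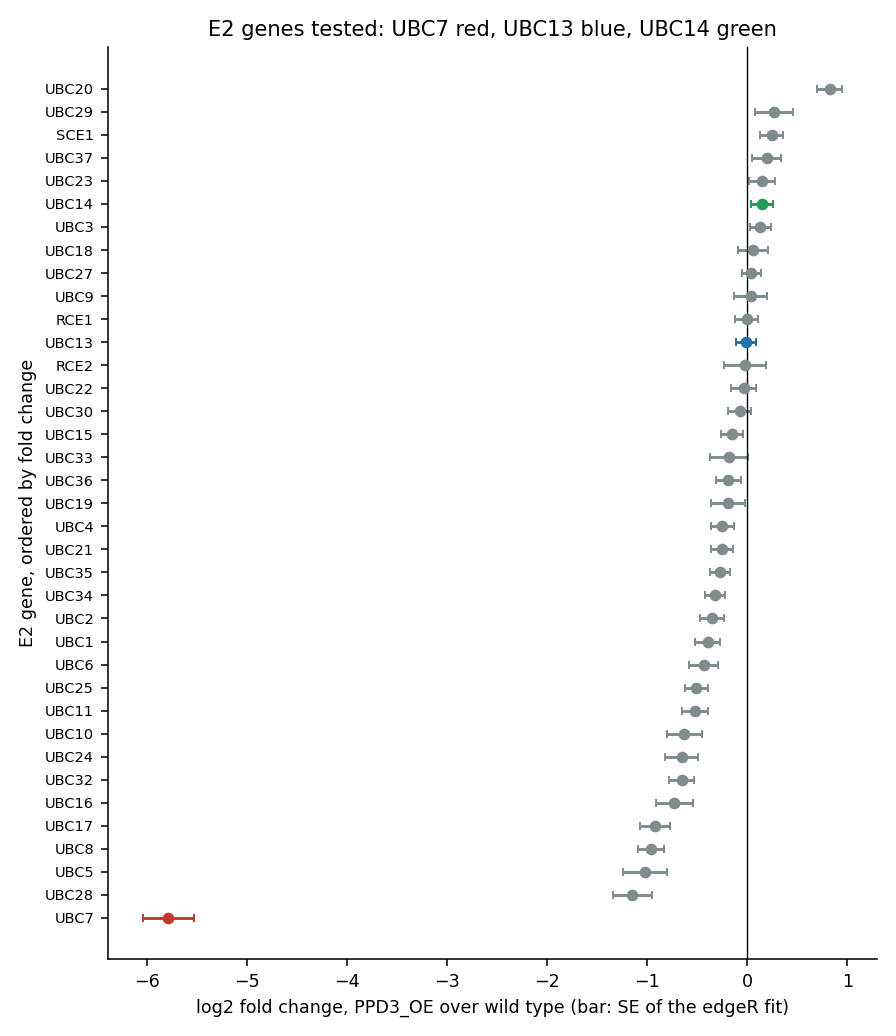
Log2 fold change of PPD3_OE over wild type for the 37 E2 genes tested, ordered by value, with the SE of the edgeR fit as bars. UBC7 (red) stands at -5.78, far from the next lowest, UBC28 at -1.15, while UBC13 (blue) and UBC14 (green) lie near 0.

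Among E2 enzymes tied to ER quality control, UBC32, a membrane-bound E2 of the Ubc6 type that acts in ERAD, was at 44.4 and 51.7 CPM in WT 1 and 2 and at 29.8 and 31.4 CPM in PPD3_OE 1 and 2 (-0.65 ± 0.12, DESeq2 adjusted p = 0.00483). Its relatives UBC33 (-0.18 ± 0.19) and UBC34 (-0.32 ± 0.10) did not pass in either tool. UBC35 (-0.27 ± 0.10) and UBC36 (-0.19 ± 0.12), the counterparts of yeast Ubc13, did not pass either. These 5 were named for their roles, after their values were seen.

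ERAD genes other than E2 enzymes were mostly on the negative side. Of 23 tested, 17 had negative and 6 positive fold changes, and the median of the list was -0.23. Over all 19919 genes tested, 9715 were negative and 10204 positive, with a median of 0.01. With edgeR 0 passed at an adjusted p of 0.05, and the 5 with an unadjusted p under 0.05 were all lower. DESeq2 called 0 higher and 5 lower, a count that fell most without WT 2 or PPD3_OE 2. Those fits had 1 plant in a group, and their share over all genes was not counted. With all 4 plants DESeq2 called 18.0% of all genes (8.35% higher and 9.65% lower), and 33.1% were at an unadjusted p under 0.05 with edgeR. The edgeR count of the list lies below that share, and the DESeq2 count in total is near its share. In 18 of the 23 the groups did not overlap (16 lower and 2 higher in PPD3_OE), against 67.0% of all genes (33.0% lower and 33.9% higher). The 3 RMA genes, which encode ER-membrane RING ligases, were among the 5 called by DESeq2. RMA1 was at 40.9 and 41.4 CPM in WT 1 and 2 and at 16.1 and 8.78 CPM in PPD3_OE 1 and 2 (-1.72 ± 0.31, DESeq2 adjusted p = 2.28e-05), RMA2 had a log2 fold change of -1.05 ± 0.23, and RMA3 one of -0.90 ± 0.14. On the positive side HRD3B, a relative of the yeast Hrd1 partner Hrd3, was at 0.36 ± 0.17. The Arabidopsis counterparts of the ligases that partner Ubc7 in yeast were closer to 0 than the RMA genes. HRD1A was at 0.00 ± 0.11, HRD1B at 0.24 ± 0.13, and DOA10A, also called CER9, at -0.36 ± 0.15, and none of these 4 passed in either tool. HRD1A and DOA10A were named for their roles, after their values were seen.

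ER stress genes, chiefly chaperones of the ER, stood on the positive side. Of 21 tested, 17 had positive fold changes, with a median of 0.54, against 10204 of 19919 over all genes. With edgeR 0 passed, 12 had an unadjusted p under 0.05, all of them higher, and DESeq2 called 9 higher and 0 lower. Over all genes these shares were 33.1% with edgeR and, with DESeq2, 8.35% higher and 9.65% lower. The count of 9 fell most without WT 2 or PPD3_OE 2. Those fits had 1 plant in a group, and their share over all genes was not counted. In the same plants DESeq2 called all 8 dividing-cell markers higher (median log2 fold change 0.92), and the 4 senescence markers tested were all lower (median -4.47). The part of either in the ER stress values was not tested. NAC103, a transcription factor of the unfolded protein response, was at 0.839 and 1.06 CPM in WT 1 and 2 and at 2.67 and 2.13 CPM in PPD3_OE 1 and 2 (1.34 ± 0.27, DESeq2 adjusted p = 0.0213). The ER chaperone BIP2 was at 212 and 205 CPM against 363 (plant 1) and 473 CPM (plant 2), with a log2 fold change of 1.00 ± 0.18 (DESeq2 adjusted p = 4.67e-05). Its near copy BIP1 makes the counts of both uncertain. SHD, the ER form of HSP90, was at 0.83 ± 0.20. The sensor IRE1A (-0.50 ± 0.26) and the immune calreticulin CRT3 (-0.24 ± 0.17) were lower with groups that did not overlap, and neither passed in DESeq2 or edgeR. In the same list BIP3 (0.01 ± 0.54), BZIP60 (-0.19 ± 0.73) and BZIP28 (-0.19 ± 0.32) had overlapping groups, and none of them passed in either tool. BIP3, BZIP60 and BZIP28 were named for their roles, after their values were seen.

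By number of genes, ubiquitin, E1 and proteasome genes were mostly on the positive side. Of 11 ubiquitin and E1 genes tested, 8 had positive fold changes (median 0.25), against 10204 of 19919 over all genes. The summed level of the 11 was lower in PPD3_OE. It was 4105 and 4932 CPM in WT 1 and 2 and 3662 and 3718 CPM in PPD3_OE 1 and 2. UBQ10 had the highest level of the list, with means of 1901 CPM in wild type and 1047 CPM in PPD3_OE. With edgeR 0 passed, with 5 at an unadjusted p under 0.05. Over all genes the share was 33.1% by that rule and 18.0% by DESeq2. DESeq2 called 1 higher and 2 lower of the 11, a count of 3 that was lower without WT 2, PPD3_OE 1 or PPD3_OE 2. The share over all genes in such fits, with 1 plant in a group, was not counted. This limit also holds for the proteasome list. The polyubiquitin genes UBQ3 (-0.92 ± 0.21) and UBQ10 (-0.86 ± 0.22) were the 2 called lower, and UBQ5, a fusion of ubiquitin to a ribosomal protein, the 1 called higher (0.42 ± 0.13). The ubiquitin fusions UBQ2 (0.45 ± 0.13) and UBQ1 (0.40 ± 0.14) did not pass in DESeq2 or edgeR. Ubiquitin genes share near-identical repeats, so their counts are uncertain. Of 15 proteasome genes tested, 14 had positive fold changes (median 0.16). With edgeR 0 passed, 2 were at an unadjusted p under 0.05, and RPT2B was DESeq2's 1 call (0.48 ± 0.13, DESeq2 adjusted p = 0.0475), a call lost without WT 2, PPD3_OE 1 or PPD3_OE 2. Both proteasome counts lie below the shares over all genes. The core subunits PAB1 (0.37 ± 0.11) and PAD1 (0.33 ± 0.12) were next, and RPT5A (-0.11 ± 0.11) was the member with a negative value.

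**Figure D5:**
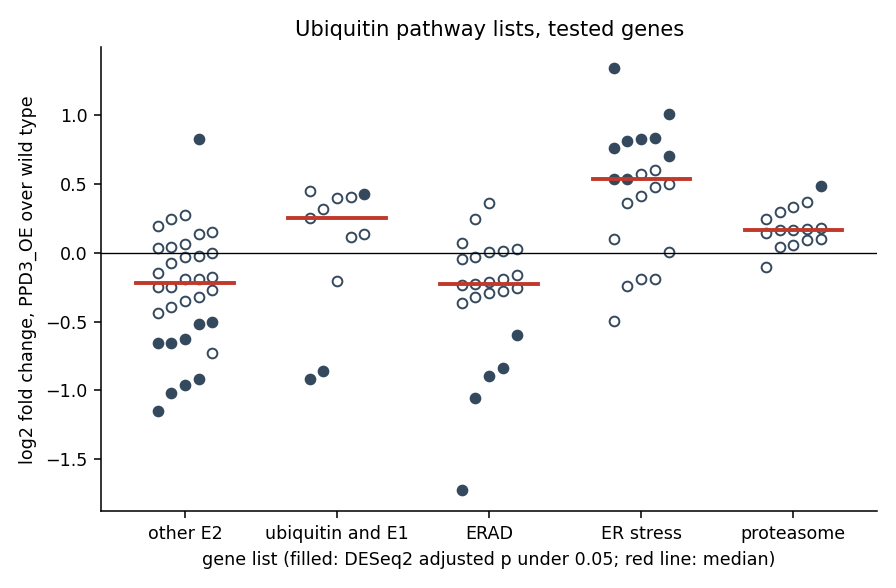
Log2 fold change of PPD3_OE over wild type for each tested gene of 5 lists, other E2, ubiquitin and E1, ERAD, ER stress and proteasome, with 1 point per gene, filled where DESeq2's adjusted p was under 0.05, and a red line at the list median. The medians are -0.22, 0.25, -0.23, 0.54 and 0.16 in that order, and all points lie between -1.72 and 1.34.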

How the data were processed

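The authors deposited whole-number counts of reads per gene, with no normalization, 1 file per library. The submitters' processing notes name TAIR10 and DESeq2. For the aligner, the counter and the annotation, no version or name is given (not given in the sources used here). Per the labels' protocols, libraries came from a TruSeq RNA kit, which marks no strand, read as 150-base single reads. Rows that name no gene held 9.30% to 10.0% of counts per library and were left out. Counts were tested with edgeR 4.0.16 (R 4.3.3, minimum count 10, minimum total 15, TMM scaling, quasi-likelihood F test of genotype, Benjamini-Hochberg adjustment over 19919 genes, threshold 0.05), after a run on simulated data. The SE is the log2 fold change over the root of F. DESeq2 1.42.0 was the other test. The 4 plants leave 2 residual degrees of freedom. The p-values rest on the spread between these plants alone, with each gene's variance drawn by both tools towards that of other genes.

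Lengths and sequences came from RefSeq's TAIR10.1 by locus, with Biopython 1.88. The members, gene lists, tests and alternatives were chosen with earlier results of these data known. UBC26 is not analysed here. Named genes are PPD3, the 3 members, up to 3 genes per direction and list by fold change (mean of at least 1 CPM, groups that do not overlap), and the nearest genes by pattern, 5 for UBC7 and 3 for each paralogue. Flanking genes, SAG12, SAG13, ORE1, UBC19, UBC32 to UBC36, HRD1A, DOA10A, BIP3, BZIP60 and BZIP28 were named outside this rule, by position or role.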

Additional observations from a re-analysis of the deposited data

How the results depend on the processing

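Under other scalings, other filters, DESeq2 and the replicate block, the log2 fold change ran from -5.83 to -5.76 for UBC7, from -0.06 to 0.01 for UBC13 and from 0.10 to 0.18 for UBC14. With each plant left out in turn they ran from -6.12 to -5.53 for UBC7, from -0.06 to 0.04 for UBC13 and from 0.05 to 0.20 (0.205) for UBC14, and the mean log2 ratio of UBC13 to UBC14 from 0.36 (0.365) to 0.46. Over all genes, edgeR's 1 call became 13 with no filter, 0 with a filter of 5 CPM, 4129 at an adjusted p of 0.10 and 3672 with DESeq2, and 0 with any plant left out. At an adjusted p of 0.10, edgeR called 10 other E2, 2 ubiquitin and E1, 5 ERAD, 9 ER stress and 1 proteasome genes, where DESeq2 called 10, 3, 5, 9 and 1. The edgeR counts over these 5 lists stayed at 0 with any plant left out. Leaving out each plant, added after the data were seen, moved DESeq2's counts from 2 to 12, from 0 to 3, from 1 to 5, from 0 to 10 and from 0 to 1. Without WT 1, DESeq2 replaced its parametric dispersion trend with a local regression. The replicate numbers share only a number: deviations of same-numbered plants had a correlation of -0.304, so they were not paired. With the replicate number as a block edgeR called 0 genes, and 137 with the crossed replicate block, added after the data were seen. The cause of these shifts was not tested. Depth limits UBC7 in PPD3_OE, at 16 and 9 counts.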
